A study of Saccharomyces cerevisiae with 24 samples.

Results

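The comparison covered here is the step from 30 to 60 min after galactose in the control strain YSS37 of budding yeast, measured on 6 of the 24 arrays of the series. Samples were taken by their titles: 3 arrays of YSS37 at 60 min, and 3 arrays of YSS37 at 30 min against which they were set. YSS37 is a MATa strain in which IFH1, which encodes a coactivator of ribosomal protein (RP) genes, keeps its own promoter and carries a 13myc tag next to a TRP1 marker. The labels call it wild type, although its IFH1 is tagged. The other strain, YSS89, is also MATa with the same tag, and its IFH1 is driven by the galactose-inducible GAL1 upstream sequence beside a HIS3 marker. It enters only where its own 60 and 30 min arrays, 3 each, were set beside those of YSS37. Cells of both strains grew in log phase at 30 °C in YPLG medium and received galactose to 2%. The labels give times without a unit, and minutes are assumed. No array in the series came from a culture without galactose at these times, so the time since galactose and the time in culture cannot be told apart.

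Yeast growing without a preferred sugar makes hexose phosphates by gluconeogenesis and feeds acetyl units into the glyoxylate cycle, and it burns lactate, glycerol, ethanol or acetate by respiration. The transcription factors Cat8 and Adr1 switch on many of the genes for this, and a fermentable sugar turns them off. Galactose is taken up by Gal2 and converted to glucose phosphate by the Leloir enzymes Gal1, Gal7 and Gal10, whose genes are switched on by Gal4 once the sensor Gal3 releases it from Gal80.

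Between 30 and 60 min the largest changes in YSS37 were falls in genes for the use of carbon sources other than sugar. FBP1, which encodes the gluconeogenic fructose-1,6-bisphosphatase, fell by 4.31 ± 0.45 on the log2 scale (SE), and the malate synthase gene MLS1 and the phosphoenolpyruvate carboxykinase gene PCK1 fell by 3.11 ± 0.45 and 2.95 ± 0.44. Rises were fewer and smaller, among them the pentose phosphate gene GND1 (1.30), the glycerol phosphatase gene GPP1 (1.07) and the uracil permease gene FUR4 (1.05). On the brightest probe set of each gene, no cytosolic RP gene and no ribosome assembly gene passed the test in either direction. A probe set was called at an adjusted p under 0.05 in a limma fit with the Benjamini-Hochberg method over 9275 probe sets. By this rule 29 probe sets were higher at 60 min than at 30 min, or 0.313% of those tested, and 113 were lower, or 1.22%. Of the higher ones 24 named 1 gene each, and of the lower ones 106 named 1 gene, for 105 genes in all. The rest, 5 higher and 7 lower, named none or several. The gene lists below use 1 probe set per gene, and a fit on such probe sets called 36 of 5656 higher and 128 lower. Those shares, not the ones over all probe sets, match the unit of the list counts. Of the 29 rises 8 reached 2-fold, and of the 113 falls 69 did. Every called probe set had its 3 arrays at 60 min entirely beyond the 3 at 30 min, as did 16.8% of all probe sets tested. The median change over all probe sets was 0.02, and the central 90% lay between -0.61 and 0.54. In bulk RNA fewer cells making a transcript and less of it per cell cannot be told apart.

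**Figure D1:**
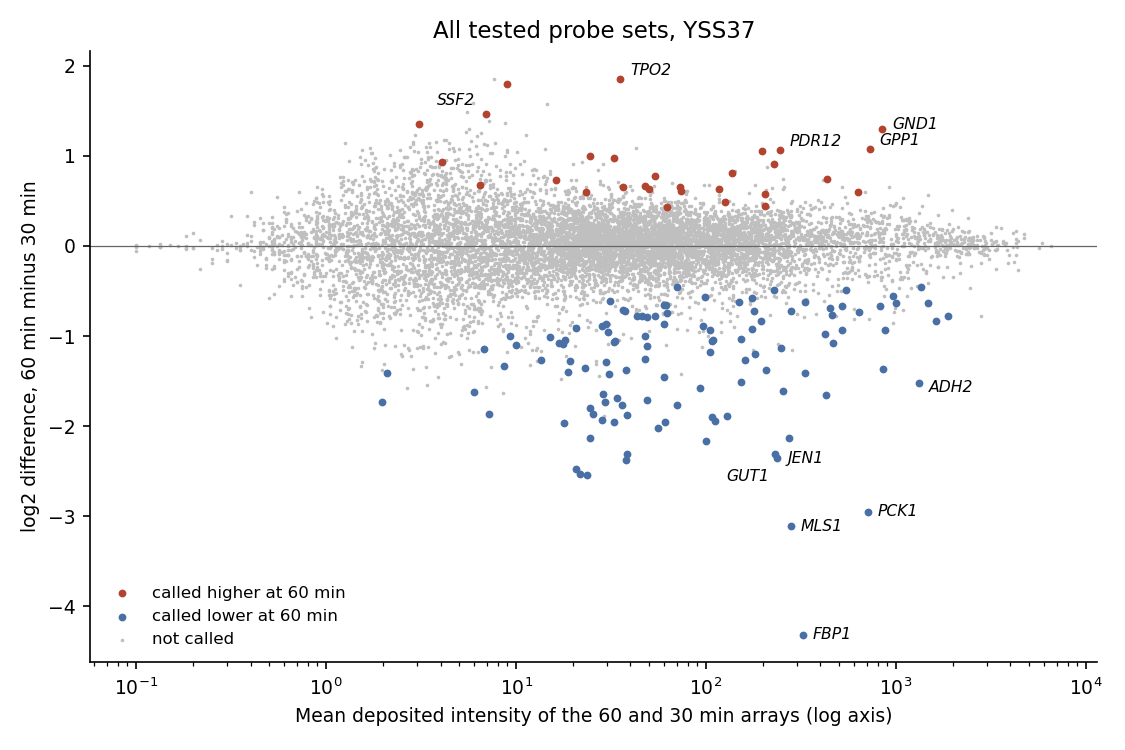
Log2 difference of 60 min minus 30 min in YSS37 for the 9275 tested probe sets (vertical axis) against their mean deposited intensity over the 6 arrays (log horizontal axis, with the dimmest drawn at its left end). Red points are the 29 called higher at 60 min and blue points the 113 called lower. FBP1, MLS1 and PCK1 lie lowest, and the called rises reach 1.85.

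These counts depended on which arrays entered the fit. The spread was estimated over all 24 arrays of 8 groups. From the 6 arrays alone, 0 rises and 7 falls were called by limma, with 854 probe sets at an unadjusted p under 0.05, against 1132 in the fit over all arrays. Replicate c at 60 min was hybridized in another run than the other 5 arrays. Without it 19 rises and 67 falls were called. The run of those 5 arrays, which also held the YSS37 arrays at time 0, gave 0 rises and 10 falls when fitted alone. In that fit 638 probe sets had an unadjusted p under 0.05 (limma). Leaving out replicate b at 30 min gave 10 and 49, and leaving out replicate b at 60 min gave 18 and 74. With replicate letters as a block the counts were 31 and 123. Measures of the arrays themselves were close at both times. The ratio of 3' to 5' ACT1 probe sets was 1.33 to 1.50 at 60 min and 1.41 to 1.46 at 30 min, and arrays of the same time correlated at r of 0.969 to 0.981 over probe sets, against 0.965 to 0.983 between times. Probe sets for 25S ribosomal RNA averaged 658 to 864 at 60 min and 608 to 818 at 30 min. The labelled mating type could not be checked against a strain of the other type, and levels of different probe sets are not comparable. Of the 7 a-cell genes MFA1, MFA2, STE2, STE6, BAR1 and AGA2 averaged 38.1 to 624 at 60 min and 40.7 to 513 at 30 min, and ASG7 averaged 2.93 at 60 min and 6.03 at 30 min. Of the alpha-cell genes STE3, MF(ALPHA)1 and MF(ALPHA)2 averaged 6.43 to 7.70 at 60 min and 5.27 to 6.60 at 30 min, and SAG1 averaged 23.1 at 60 min and 19.3 at 30 min. The summed level of the a-cell list was 909.5 to 1047 at 60 min and 818.3 to 837.7 at 30 min, and that of the alpha-cell list 37.9 to 47.6 at 60 min and 30.9 to 46.3 at 30 min. None of 7 a-cell genes and 4 measured alpha-cell genes was called.

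Of the 15 measured genes for the glyoxylate cycle and gluconeogenesis 8 fell and none rose, with a median change of -0.87 against 0.02 over all probe sets. FBP1 had intensities of 64.1, 20.1 and 16.9 in replicates a, b and c at 60 min, against 668.6, 620.5 and 543.2 at 30 min. The 3 values at 60 min all lay far below the 3 at 30 min, and the fitted difference, on the log2 scale after the pseudocount and normalization, corresponds to 19.9-fold lower (adjusted p = 3.95e-05, limma). Folds of the next genes are fitted ones too, and the deposited intensities of FBP1 averaged 33.7 ± 26.4 at 60 min and 611 ± 63.3 at 30 min (SD, n = 3 each). MLS1, for the malate synthase of the glyoxylate cycle, read 121.3, 31.3 and 38.1 at 60 min and 546.1, 507.6 and 426.1 at 30 min (fitted 8.63-fold lower, adjusted p = 0.00103, limma). PCK1, for the enzyme that turns oxaloacetate into phosphoenolpyruvate, read 438.7, 111.2 and 70.6 at 60 min and 1195.8, 1430.6 and 1041.2 at 30 min (fitted 7.73-fold lower, adjusted p = 0.00125, limma). In all 3 genes replicate a was far above replicates b and c at 60 min and still below every 30 min array. The isocitrate lyase gene ICL1 also had its highest 60 min value in replicate a, with 156, 84.8 and 61.1 at 60 min against 485.3, 534.7 and 326.4 at 30 min, and fell by 2.13 ± 0.32.

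SFC1, for the mitochondrial carrier that exchanges succinate for fumarate, read 36.1, 41.1 and 27.8 at 60 min and 198, 158.9 and 135 at 30 min, a fall of 2.17 ± 0.31. Replicate b was the highest there at 60 min. The isocitrate dehydrogenase genes IDP2 (cytosolic) and IDP3 (peroxisomal) fell by 1.41 ± 0.19 and 0.92 ± 0.15. ICL2, for the mitochondrial 2-methylisocitrate lyase, fell by 0.87 ± 0.21, and its call was lost without any 1 of 5 arrays (highest adjusted p = 0.181). Members that did not pass the test were the malate dehydrogenase genes MDH2 (-0.50) and MDH3 (-0.31), the peroxisomal citrate synthase gene CIT2 (-0.23) and AGX1 (-0.47). The remaining uncalled members, GID8 (-0.32), FYV10 (-0.29) and VID24 (0.48), encode parts of the ubiquitin ligase that marks gluconeogenic enzymes for breakdown. The number of falls was 7 or 8 with any 1 array left out. It was 1 when only the 6 arrays were fitted.

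**Figure D2:**
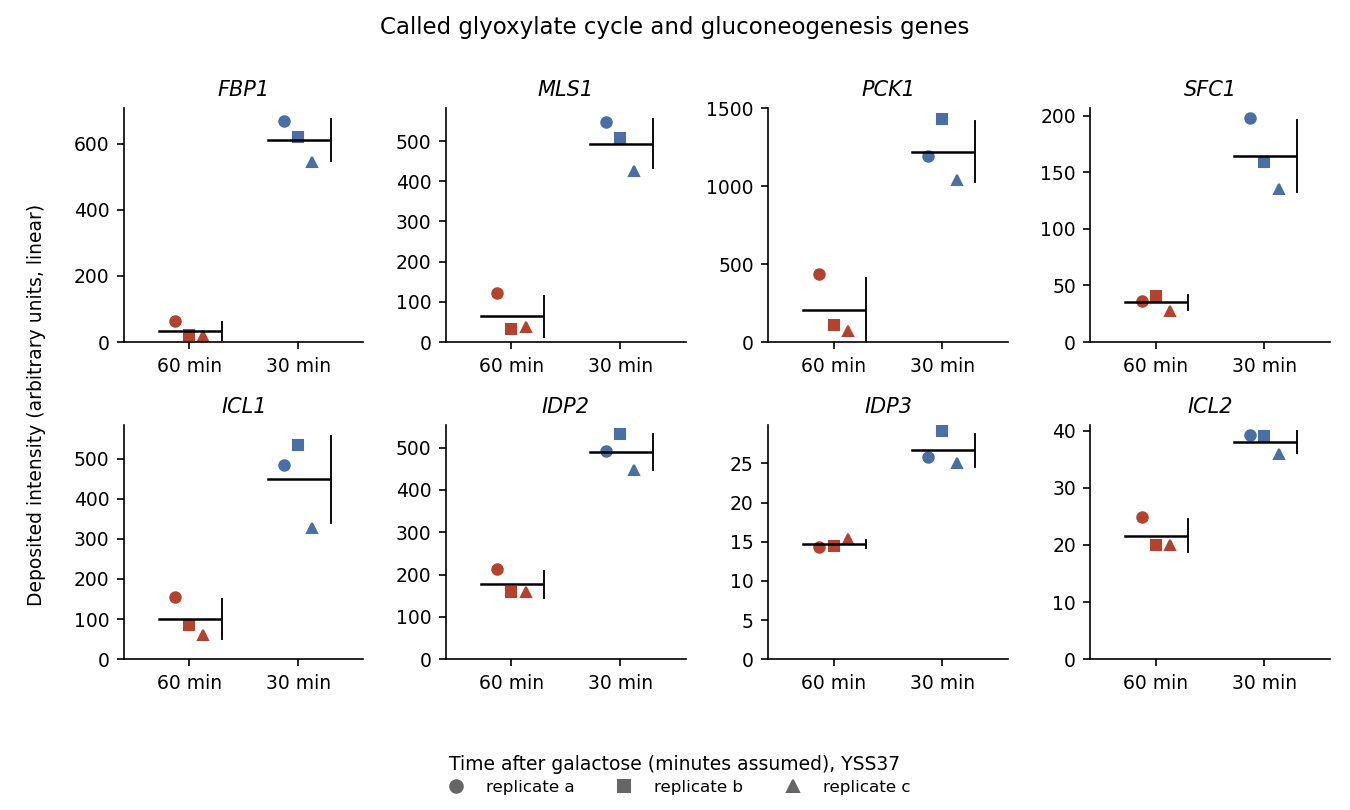
Deposited intensity (linear vertical axes, arbitrary units, from 0) of the 8 called glyoxylate cycle and gluconeogenesis genes in YSS37 at 60 min (red, left) and 30 min (blue, right). Symbols are replicates a, b and c, horizontal lines are means and vertical lines are ± 1 SD (n = 3). Replicate a is the highest at 60 min for FBP1, MLS1, PCK1, ICL1, IDP2 and ICL2, and no panel has overlapping groups.

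Genes for taking up and oxidising lactate, glycerol, ethanol and acetate fell as well, 9 of 22 measured, while 1 rose (median -0.75). JEN1, the lactate and pyruvate permease gene, read 62.5, 71.7 and 82.7 at 60 min and 448.7, 355.3 and 403.3 at 30 min, and fell by 2.36 ± 0.32 (adjusted p = 6.32e-04, limma). GUT1, for glycerol kinase, read 86.3, 73.4 and 59.6 at 60 min and 451.6, 377.6 and 339.8 at 30 min, a fall of 2.31 ± 0.20 with the smallest adjusted p of the step among named genes (5.40e-06, limma). For both genes the 2 times were far apart, and the 60 min arrays lay close together. ADH2, for the alcohol dehydrogenase that oxidises ethanol, stayed bright at 617.4, 856 and 652.2 at 60 min, against 1341.6, 2330.5 and 2103.7 at 30 min (fall of 1.52 ± 0.20).

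The acetyl-CoA synthetase gene ACS1 fell by 1.89 ± 0.31 and the mitochondrial aldehyde dehydrogenase gene ALD4 by 1.37 ± 0.21. FDH1, for formate dehydrogenase, fell by 2.37 ± 0.45. Its call ended without replicate b at 60 min (adjusted p = 0.05001), 2 other probe sets named FDH1 changed by -1.47 and -0.11 without being called, and the called set is of a type shared between similar genes. The second step of glycerol use, encoded by the mitochondrial dehydrogenase gene GUT2, moved less: 689, 697.4 and 540.7 at 60 min against 1033, 1055.6 and 910.4 at 30 min (fall of 0.67 ± 0.16), a call lost without any 1 of the 6 arrays (highest adjusted p = 0.186). The D-lactate dehydrogenase gene DLD1 fell by 0.63 ± 0.11 and kept its call with each array left out. The acetate transporter gene ADY2 was dim, at 8.20 ± 3.75 at 60 min and 19.0 ± 5.50 at 30 min (SD, n = 3), and its call was lost with the replicate block (adjusted p = 0.0653). MPC2, for a subunit of the mitochondrial pyruvate carrier, was the member that rose, by 0.44 ± 0.11. That call too was lost with the block (adjusted p = 0.0805).

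Among 26 regulator genes of carbon source use 3 fell and none rose (median -0.03). CAT8, for the activator of gluconeogenic genes, read 10.8, 11.4 and 11.1 at 60 min and 41.7, 31.8 and 40.6 at 30 min (fall of 1.80 ± 0.19, adjusted p = 3.95e-05, limma). ADR1, for the activator of ethanol and fatty acid genes, read 43, 45.5 and 39.8 at 60 min and 74.6, 73.9 and 83.5 at 30 min (fall of 0.87 ± 0.16). REG2, for a regulatory subunit of the Glc7 phosphatase, read 14.1, 15.7 and 17.5 at 60 min and 96.7, 47.4 and 38.9 at 30 min (fall of 1.87 ± 0.28). The 60 min arrays were tight in all 3 genes, and the 3 calls held with each array left out. The kinase gene SNF1 changed by 0.10 and its subunit gene SNF4 by 0.04, the repressor genes MIG1 and MIG2 by -0.04 and 0.24, and the respiratory activator genes HAP2, HAP3, HAP4 and HAP5 by 0.10, -0.11, -0.26 and -0.22. None of these was called, and for each of them except SNF1 the arrays of the 2 times overlapped.

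Peroxisomal fatty acid oxidation and carnitine genes fell in 7 of 19 cases and rose in none (median -0.66). The thiolase gene POT1 read 39, 37.1 and 18.9 at 60 min and 96.3, 154.4 and 76.4 at 30 min (fall of 1.76 ± 0.34), a call lost without replicate c at 60 min or replicate b at 30 min (adjusted p up to 0.0784). PXA1, for a subunit of the peroxisomal fatty acid importer, fell by 1.62 ± 0.26 and was dim, at 2.63 ± 1.17 at 60 min and 9.33 ± 0.46 at 30 min (SD, n = 3 each). CAT2, for carnitine acetyltransferase, fell by 1.42 ± 0.25. The catalase gene CTA1 (-1.40), the multifunctional beta-oxidation gene FOX2 (-1.29), the acyl-CoA synthetase gene FAA2 (-1.28) and AGP2 (-0.99) made up the rest. The calls of PXA1 and CAT2 held with each array left out, and that of CTA1 was lost without any 1 of the 6 (adjusted p up to 0.221). Without replicate b at 30 min 2 members were called, and FOX2 and FAA2 then had adjusted p-values of 0.0677 and 0.0560 (limma). With the replicate block AGP2 was not called (adjusted p = 0.0926). POX1, a further gene of fatty acid oxidation, is not among the 7. A dim probe set of it that the list does not use was called lower (-1.34), and its other probe sets, at -0.44 to 0.36, were not called.

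**Figure D3:**
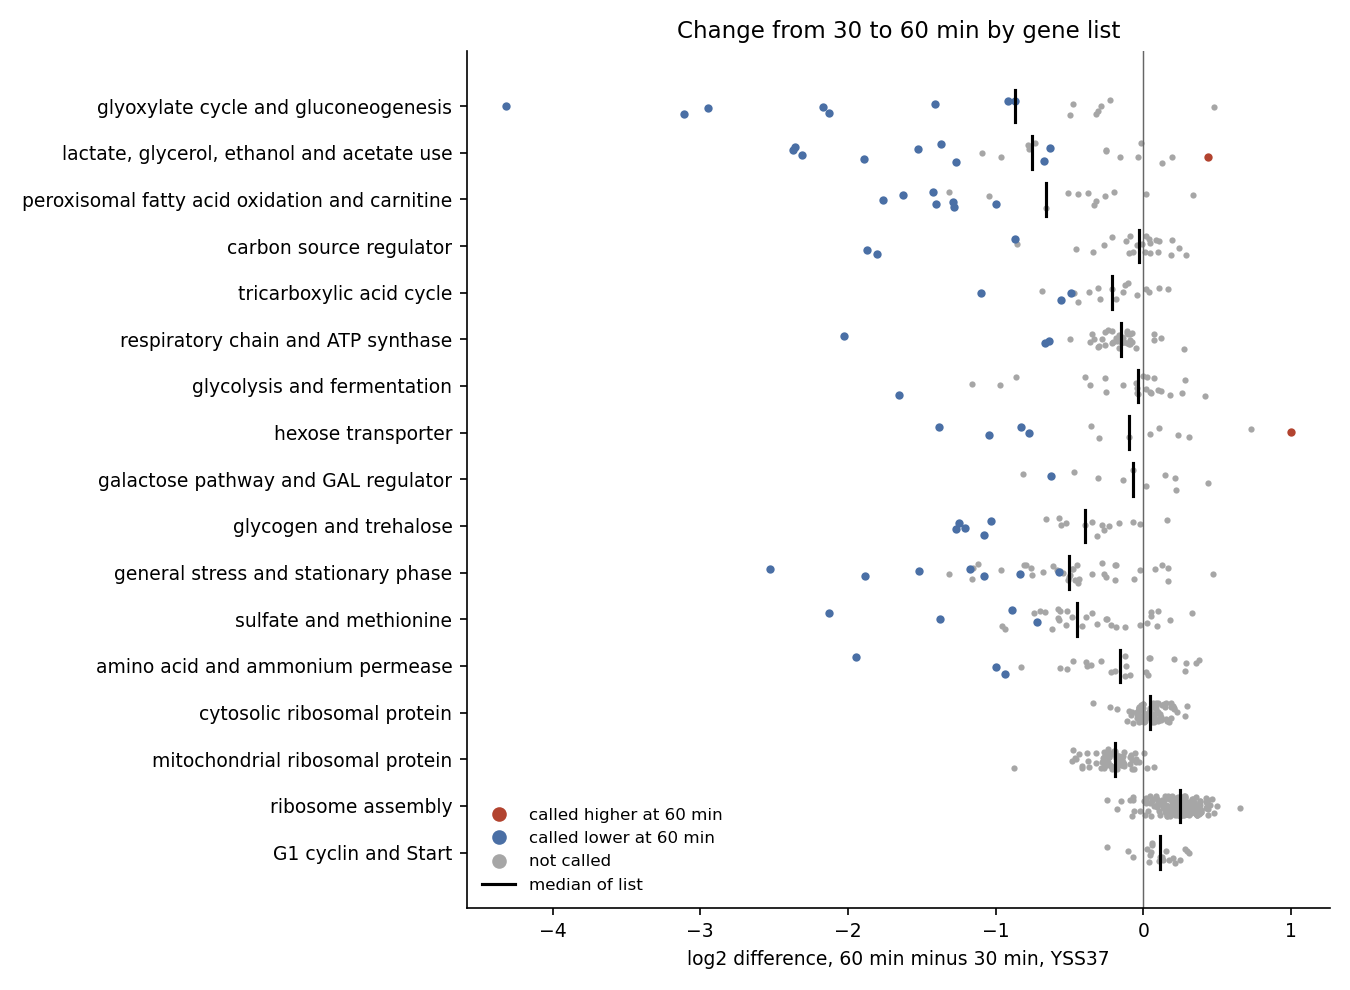
Log2 difference of 60 min minus 30 min in YSS37 (horizontal axis) for the measured members of 17 gene lists, 1 row a list. Blue points were called lower, red points higher and grey points not called, and black bars are list medians. The upper 3 lists have medians of -0.87, -0.75 and -0.66, and the cytosolic ribosomal protein and ribosome assembly lists hold no called gene.

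Genes of respiration were called lower in part. Of 19 tricarboxylic acid cycle genes 3 fell (median -0.21) and of 42 respiratory chain and ATP synthase genes 3 fell (median -0.15), and none rose in either list. Over all probe sets 1.22% were called lower, and in the fit with 1 probe set per gene 128 of 5656 were. SDH4, for a membrane subunit of succinate dehydrogenase, read 759.2, 774.2 and 836.6 at 60 min and 1115.2, 1281 and 1235.7 at 30 min (fall of 0.64 ± 0.11). KGD1 and KGD2, for subunits of 2-oxoglutarate dehydrogenase, fell by 0.56 ± 0.11 and 0.49 ± 0.11. Without replicate c at 60 min or without replicate b at 30 min none of the cycle genes was called, and without the first of these SDH4 was the single respiratory chain gene called. The external NADH dehydrogenase gene NDE2 was uneven within each time, with 37.7, 19 and 10.9 at 60 min and 123.9, 106.4 and 37.9 at 30 min. Its replicates kept the order a, b, c at both times, the highest 60 min value came close to the lowest 30 min value, and its adjusted p of 0.0404 was 0.00190 with the replicate block (limma). The call was lost without any 1 of 4 arrays (adjusted p up to 0.208), with values as deposited, with median centring and with the run as a block. CIT3, for a mitochondrial citrate and methylcitrate synthase, fell by 1.10 ± 0.27 and was not called with the block (adjusted p = 0.0555). Its chromosomal neighbour PDH1, for 2-methylcitrate dehydratase, read 16.2, 10.5 and 14.8 at 60 min and 37.6, 58.9 and 58 at 30 min (fall of 1.96 ± 0.32). With ICL2, these are the mitochondrial genes of the methylcitrate route of propionate breakdown.

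Of the genes for sugar uptake, 4 of 13 measured hexose transporter and sensor pathway genes fell and 1 rose (median -0.10). HXT7 read 988.1, 1285.9 and 1309.2 at 60 min and 1855.6, 2104.6 and 2147.3 at 30 min (fall of 0.83 ± 0.14), and HXT6 fell by 0.77 ± 0.16, a call lost without replicate a at 60 min or replicate b at 30 min. These high-affinity transporter genes are near-identical, and their probe sets are of a type shared within families, so they cannot be counted as separate. HXT5 fell by 1.38 ± 0.33, with calls lost without any 1 of 4 arrays. HXT2 fell too, averaging 12.1 ± 2.34 at 60 min and 24.0 ± 1.22 at 30 min (SD, n = 3). The HXT2 call was lost without any 1 of the 6 arrays (highest adjusted p = 0.1875, limma). It was also lost with the replicate block (adjusted p = 0.0580). Without replicate b at 30 min 1 fall of this list was called. STD1, which acts in the glucose sensing pathway that controls HXT genes, was the riser: 32.8, 32.2 and 33.9 at 60 min against 16.4, 16.8 and 14.4 at 30 min (0.997 ± 0.165, adjusted p = 0.00259, limma). Of 25 glycolysis and fermentation genes HXK1 alone was called. This hexokinase gene read 153.3, 218.7 and 214.6 at 60 min and 499.9, 886.6 and 603.8 at 30 min (fall of 1.66 ± 0.32). Its adjusted p was 0.0832 without replicate b at 30 min.

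Most genes of the galactose pathway did not pass the test. Of its 11 structural and regulator genes 1 fell and none rose (median -0.07). GAL1, for galactokinase, read 1906.9, 2050.8 and 2117 at 60 min and 1969.7, 2167.7 and 1756.6 at 30 min, a change of 0.02 ± 0.18, and the times overlapped. GAL7, GAL10 and the galactose permease gene GAL2 changed by -0.31 ± 0.19, -0.07 ± 0.29 and -0.14 ± 0.23, also with overlapping arrays. The fall was in GAL3, for the sensor, with 241.9, 310.7 and 224.1 at 60 min against 401.2, 406.6 and 402.7 at 30 min (0.63 ± 0.14 lower), a call lost without any 1 of 5 arrays (highest adjusted p = 0.128). PGM2, for the phosphoglucomutase that links the pathway to glycolysis, had the largest change of the list without passing the test, with 463.8, 523.7 and 301.5 at 60 min against 691.6, 923.8 and 680 at 30 min (-0.82 ± 0.32, adjusted p = 0.294, limma), and its times did not overlap. The inhibitor gene GAL80 changed by 0.22 ± 0.11 and the activator gene GAL4 by -0.47 ± 0.21, both uncalled, as were PGM1 (0.44), GAL11 (0.22) and UGP1 (0.15). Among 7 other known Gal4 targets FUR4 rose and the proline permease gene PUT4 fell by 0.94 ± 0.23, lost without any 1 of 5 arrays (adjusted p up to 0.255). FUR4 read 261, 263.5 and 278.5 at 60 min and 159.9, 96.2 and 122.4 at 30 min (1.05 ± 0.20), and its adjusted p was 0.0796 without replicate b at 30 min.

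Storage and stress genes fell in part. Of 19 glycogen and trehalose genes 5 fell (median -0.39): the glycogen synthase gene GSY1, the branching enzyme gene GLC3, the phosphorylase gene GPH1, the debranching enzyme gene GDB1 and GIP2, with changes between -1.27 and -1.03. Of these calls 3 stood with the replicate block, and none stood without replicate a at 30 min or without replicate b at 30 min. Of 44 general stress and stationary phase genes 7 fell and none rose (median -0.51). RGI2 read 7.5, 5.9 and 5.1 at 60 min and 38.9, 40.6 and 32.4 at 30 min (fall of 2.53 ± 0.28, adjusted p = 6.08e-05, limma). SPG4, a stationary phase gene, read 76.2, 41.6 and 38.7 at 60 min and 314.4, 185.7 and 118.1 at 30 min. Its replicates kept the order a, b, c at both times, and its adjusted p was 0.0223, against 2.08e-04 with the replicate block. The call was lost without any 1 of 4 arrays (adjusted p up to 0.113) and with the run as a block. The disaggregase gene HSP104 fell by 0.57 ± 0.13, and TMA10, the outer mitochondrial membrane gene OM45, the peroxiredoxin gene PRX1 and the glutathione peroxidase gene GPX1 fell by 1.52, 1.08, 0.84 and 1.18. Of these 5 genes PRX1 alone kept its call with each array left out, and the others lost it without at least 2 arrays (adjusted p up to 0.142). Without replicate b at 30 min 2 members were called. None of the 37 measured genes of the chaperone list, which does not hold HSP104, and none of 36 proteasome genes was called (medians -0.07 and -0.10).

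Of 26 amino acid and ammonium permease genes 3 fell and none rose (median -0.16), namely DIP5, PUT4 and AGP2, and 1 was called without replicate b at 60 min, replicate a at 30 min or replicate b at 30 min. DIP5, the permease gene for glutamate and aspartate, read 44.1, 51.7 and 37.5 at 60 min and 155.3, 194.7 and 189 at 30 min (fall of 1.95 ± 0.27). INO1, for the enzyme that makes inositol phosphate, read 10.3, 11.5 and 14.5 at 60 min and 39.9, 50.5 and 43.9 at 30 min (fall of 1.93 ± 0.31). Both calls held with each array left out. The phospholipid methyltransferase gene OPI3 fell by 0.69 ± 0.17, lost without any 1 of the 6 arrays (highest adjusted p = 0.188). Of 34 sulfate and methionine genes 4 fell (median -0.45): the S-methylmethionine permease gene MMP1 (-1.37), the sulfate permease gene SUL1 (-2.13), the adenylylsulfate kinase gene MET14 (-0.89) and the aspartate kinase gene HOM3 (-0.72). SUL1 spread widely, with 9.2, 10.5 and 4.9 at 60 min and 68, 40.8 and 14.4 at 30 min. Without replicate b at 30 min, replicate a at 30 min or replicate c at 60 min 1 member of the list was called. Of 69 amino acid synthesis genes 2 fell, HOM3 and the branched-chain transaminase gene BAT2 (-0.72), and each call was lost without any 1 of 4 arrays. The median of that list was 0.03, with 40 members above 0. In the fit with 1 probe set per gene 128 of 5656 were called lower, so 2 of 69 is not read as a result about the list.

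Among the 15 largest falls were 3 further genes outside these lists. YIG1 read 8.6, 2.4 and 11.3 at 60 min and 38.2, 31.6 and 49.4 at 30 min (fall of 2.54 ± 0.43). YMR206W read 14.5, 13.1 and 11.2 at 60 min and 52.4, 81.4 and 56.6 at 30 min (fall of 2.31 ± 0.38). CSR2, for an adaptor of the Rsp5 ubiquitin ligase, read 24, 21.7 and 30 at 60 min and 85.4, 97.1 and 107.7 at 30 min on its brightest probe set (fall of 1.96 ± 0.22). A second CSR2 probe set fell by 1.71, a call lost without replicate b at 30 min (adjusted p = 0.0720), and 4 others, all dimmer, were uncalled at -1.44 to -0.19. Over the 113 falls, replicate b was the highest of the 30 min arrays in 55 probe sets and replicate c the lowest in 58. At 60 min replicate a was the highest in 48 and replicate c the lowest in 44. The same orders were not counted over all probe sets.

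The called rises were spread over the lists: of the 24 genes, 7 were in any of the 43 lists, no list had more than 1 rise, and 63 of the 105 genes called lower were in a list. TPO2, a polyamine transporter gene, rose most, with 71.2, 50.7 and 42 at 60 min against 24.1, 7.8 and 16.7 at 30 min (1.85 ± 0.37). It rests on a probe set marked as incomplete, and its adjusted p of 0.0114 rose to 0.0838 at most with 1 array left out. SSF2, for a ribosome assembly factor and also measured by a probe set marked as incomplete, read 10.2, 12.4 and 10.6 at 60 min and 2.6, 2.5 and 3.5 at 30 min (1.46 ± 0.31), and its call was lost without any 1 of 5 arrays (adjusted p up to 0.132) and with the run as a block. A second, brighter SSF2 probe set of the family type read 47.2 on average at 60 min and 34.0 at 30 min and was not called (0.43 ± 0.21, adjusted p = 0.422, limma). GND1, for 6-phosphogluconate dehydrogenase of the pentose phosphate pathway, read 918.1, 1448.7 and 1187.8 at 60 min and 391, 538.6 and 585.3 at 30 min (1.30 ± 0.31). It was the single riser among 19 genes of that pathway (median 0.01), and its call was lost without any 1 of 5 arrays (highest adjusted p = 0.186).

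GPP1, for the phosphatase that makes glycerol from glycerol phosphate, read 1022.2, 1037.6 and 859.7 at 60 min and 495.5, 534.6 and 400.6 at 30 min (1.07 ± 0.15, adjusted p = 6.32e-04, limma). PDR12, for the transporter that exports weak acids, read 329.1, 325.1 and 341.3 at 60 min and 131.5, 156.8 and 182.2 at 30 min (1.06 ± 0.19). DIF1, for a protein that brings ribonucleotide reductase into the nucleus, read 36.2, 49.8 and 45.9 at 60 min and 22.7, 20.4 and 21.2 at 30 min (0.98 ± 0.17). HRP1, for an mRNA cleavage factor subunit, rose by 0.91 ± 0.14 and ICT1, for a lysophosphatidic acid acyltransferase, by 0.81 ± 0.14. These 5 genes and STD1 kept their calls with each array left out. The malic enzyme gene MAE1 (0.75), the dolichol kinase gene SEC59 (0.73), the importin gene KAP122 (0.66), YGK1 (0.77) and TDA4 (0.66) also rose, each losing its call without at least 2 of the arrays. The RNA helicase gene DED1 (0.58) was the single riser of 38 translation factor genes, and URA3 (0.63) of 35 genes for nucleotide and one-carbon synthesis. Each of these 2 calls was lost without any 1 of 5 arrays, and URA3 was not called with the replicate block (adjusted p = 0.0544).

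**Figure D4:**
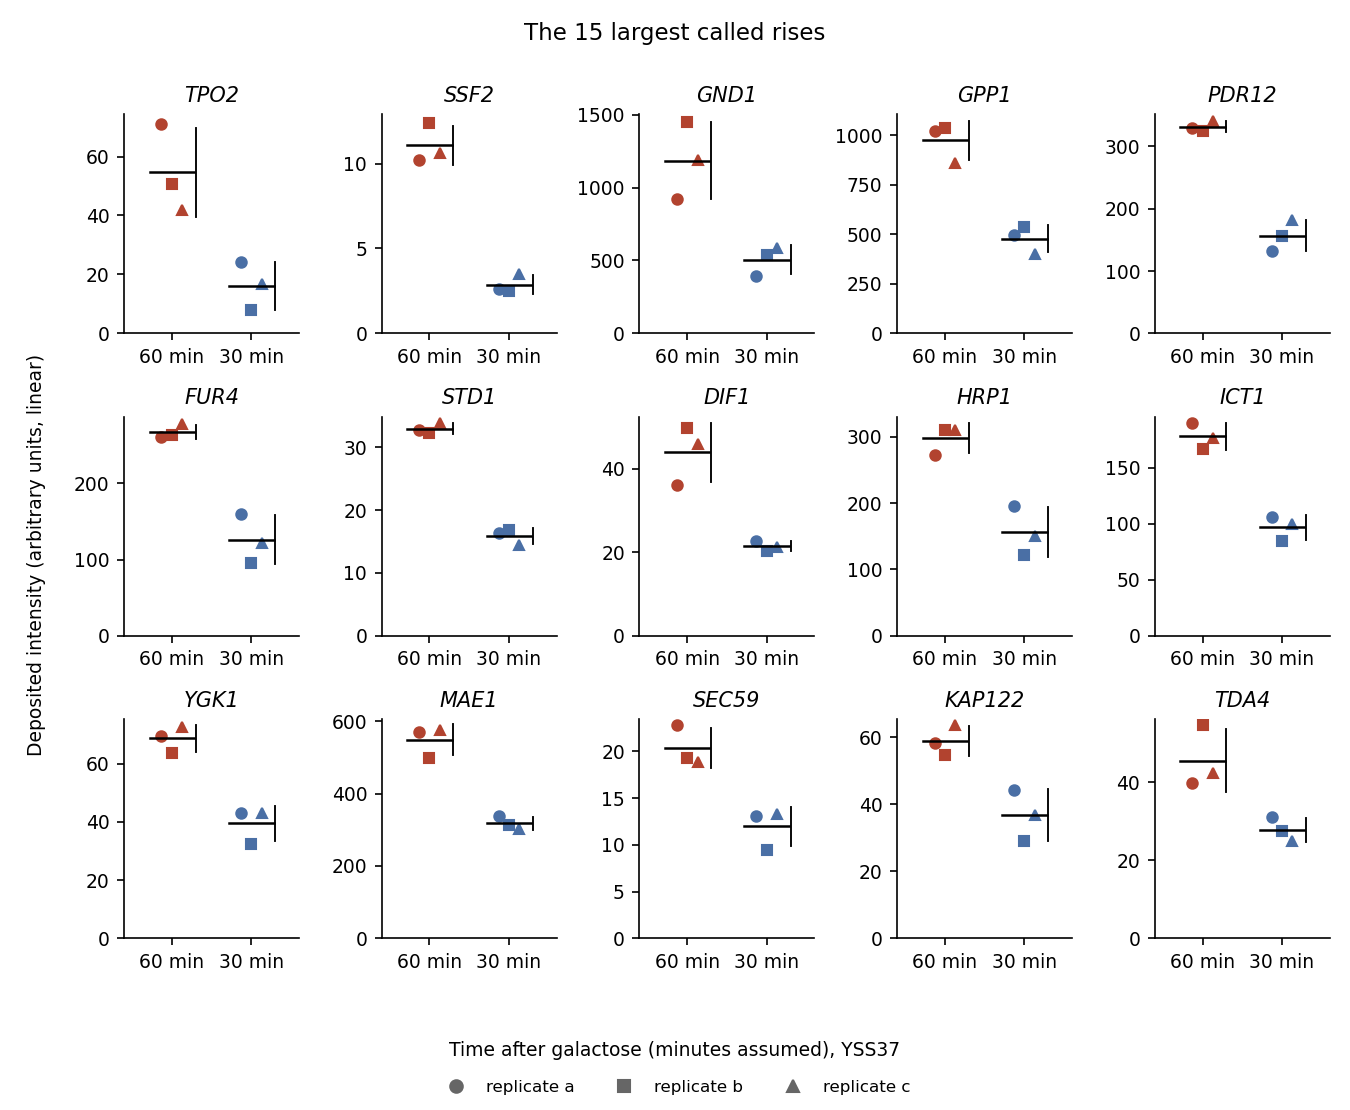
Deposited intensity (linear vertical axes, arbitrary units, from 0) of the 15 named genes with the largest called rises in YSS37, at 60 min (red, left) and 30 min (blue, right). Symbols are replicates a, b and c, horizontal lines are means and vertical lines are ± 1 SD (n = 3). The groups do not overlap in any panel, and SSF2 and STD1 stay under 40 while GND1 and GPP1 reach 1000.

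Lists for ribosomes and growth held no called member on the brightest probe set of each gene. The 80 measured cytosolic RP genes changed between -0.34 and 0.30 (median 0.05), and 53 of them lay above 0. The 164 ribosome assembly genes had a median of 0.25, with 155 above 0 and a highest value of 0.65, and 70 mitochondrial RP genes had a median of -0.19, with 67 below 0. Subunit genes of RNA polymerases I and III (40) had a median of 0.19. The median over all probe sets was 0.02. The list medians carry no test. Genes of RP regulation were uncalled: IFH1 read 41.6, 39.8 and 33.3 at 60 min and 34.3, 29.2 and 37.6 at 30 min (0.15 ± 0.17), and FHL1, SFP1 and RAP1 changed by 0.12, 0.26 and 0.46. RAP1 had all its 60 min arrays above the 30 min arrays, the other 3 did not. None of 21 G1 cyclin and Start genes was called. CLN3 changed by -0.07, CLN1 by 0.22, CLN2 by 0.20, and the histone genes HTB1 and HTB2 by 0.22 and 0.65.

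The preceding step, 30 min minus time 0, shares the 30 min arrays, so an array that reads high or low at 30 min moves both steps in opposite directions. Side by side, the change at 30 min from time 0 and the change at 60 min from 30 min were -0.80 and -4.31 for FBP1, -0.72 and -2.95 for PCK1, and -0.60 and -3.11 for MLS1. They were -1.80 and -2.37 for FDH1, -1.89 and -2.53 for RGI2, and -1.89 and -1.25 for GSY1. For ADH2 they were -0.32 and -1.52. INO1 and HXT2 had changes of opposite sign, 0.72 and -1.93 for INO1, and 1.15 and -1.04 for HXT2. GAL3 had 3.49 and -0.63, and GAL1 7.77 and 0.02. The medians of the ribosome assembly list were 1.10 and 0.25, and those of the glycogen and trehalose list -1.09 and -0.39.

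The same 30 min step in YSS89, on arrays of its own, served as a comparison. Both steps came from 1 fit that shared the normalization and each probe set's estimate of spread, so calls in the 2 strains are not independent. By the deposited instrument files, the YSS37 arrays at 30 and 60 min were of a chip lot that none of these YSS89 arrays shared. All of them but replicate c at 60 min were also hybridized in a run without any of these YSS89 arrays. A difference in level between the strains therefore cannot be told apart from chip lot. Of the 113 probe sets called lower in YSS37, 90 had a negative change in YSS89 and 31 were called lower there, where 2.27% of all probe sets were. Of the 29 called higher in YSS37, 19 had a positive change and 8 were called higher, where 2.37% of all were. The median YSS89 change was -0.41 over the 113 and 0.25 over the 29, against -1.13 and 0.75 in YSS37, whose values chose these probe sets. Over all probe sets the median YSS89 change was 0.0035, so either sign was common among probe sets at large. In YSS89 the gluconeogenic gene FBP1 changed by -3.68, PCK1 by -3.11 and MLS1 by -2.48, and all 3 were called lower there. GPP1 changed by 1.03 and PDR12 by 1.15 in YSS89.

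The difference of the 2 steps, YSS89 minus YSS37, was called for 121 of 9275 probe sets (1.3%), 87 of them positive and 34 negative. It was called for 18 of the 113 falls of YSS37, positive in 16, and for 6 of the 29 rises, positive in 1. The YSS37 step both chose these probe sets and is subtracted here, so these counts and signs follow in part from that choice. GUT1 fell in YSS37 but averaged 34.6 ± 1.91 at 60 min and 44.2 ± 13.7 at 30 min in YSS89 (SD, n = 3 each), and its steps differed by 1.93 ± 0.28 (adjusted p = 0.00198, limma). CAT8 averaged 7.03 ± 1.36 at 60 min and 7.13 ± 1.82 at 30 min in YSS89 (SD, n = 3 each), below both levels of YSS37, and its steps differed by 1.88. ADH2 went the other way: 51.8 ± 8.06 at 60 min and 568 ± 9.31 at 30 min in YSS89 (SD, n = 3 each), a step 2.03 lower than in YSS37. For TPO2 the steps had opposite signs, with 21.5 ± 7.58 at 60 min and 46.8 ± 6.62 at 30 min in YSS89 (SD, n = 3 each). FUR4 was already at 318 ± 46.7 at 30 min in YSS89 and read 251 ± 16.8 at 60 min (SD, n = 3 each), a step 1.48 lower than in YSS37. For IFH1, whose promoter differs between the strains by design, the YSS89 levels were 572 ± 13.7 at 60 min and 1296 ± 77.8 at 30 min (SD, n = 3 each). The count of 121 was 37 without replicate b of YSS37 at 30 min, the lowest with any 1 of the 12 arrays left out.

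**Figure D5:**
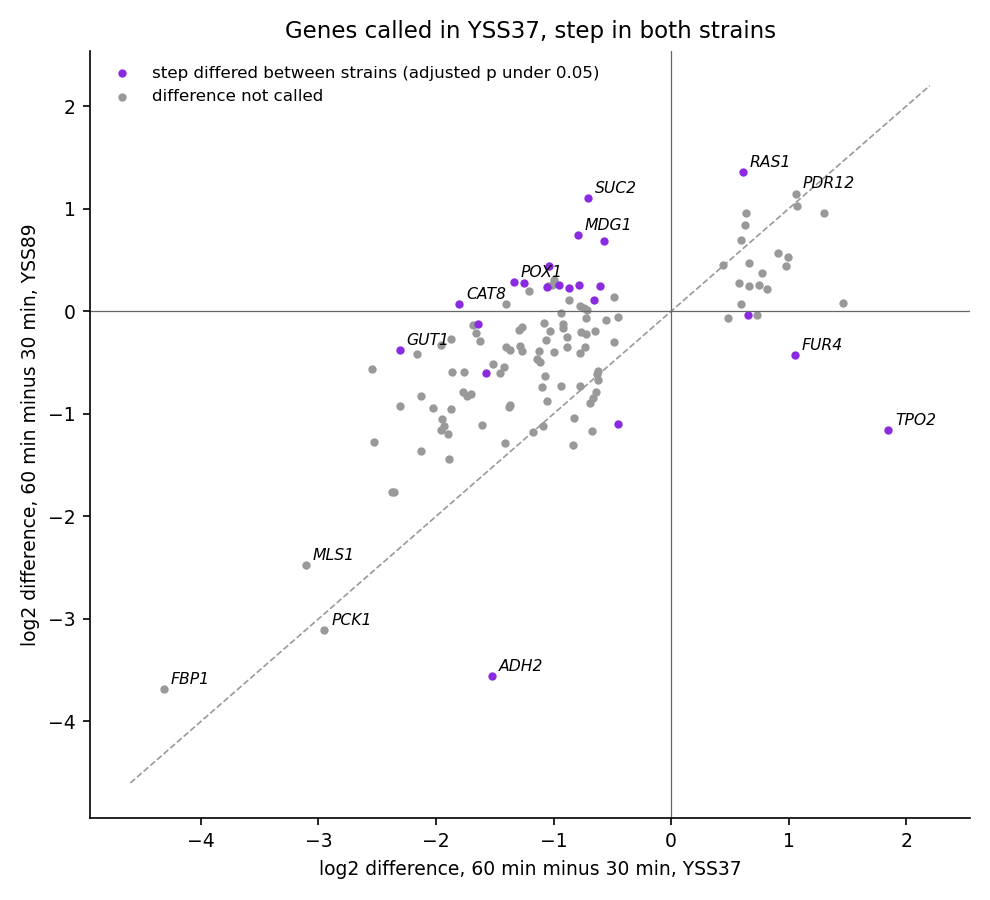
Log2 difference of 60 min minus 30 min in YSS37 (horizontal axis) and in YSS89 (vertical axis) for the 130 single-gene probe sets called in YSS37. Purple points are those whose step differed between the strains at an adjusted p under 0.05, and the dashed line marks equal steps. FBP1, PCK1 and MLS1 are low in both strains, GUT1 and CAT8 lie above the line, and ADH2, TPO2 and FUR4 lie below it.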

How the data were processed

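RNA of 24 samples was hybridized to 1-colour Affymetrix YG_S98 arrays, 8 groups of 3 biological replicates per the labels. The labels do not say whether samples of different times came from the same culture. The authors deposited a table of intensity values on a linear scale, 1 for each of 9335 probe sets. The 2% trimmed mean is near 100.1 on the 6 arrays used, which shows that they share a scaling. How probes were summarised is not given in the sources used here. Settings in the deposited instrument files (keyed values of other kinds, per the file headers) served to read 4 hybridization runs. The precision is limited by the number of arrays.

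From these values 60 control probe sets were left out, log2(intensity + 1.4, the 10th percentile of the table) was taken, and the 24 arrays were quantile normalized. A log2 difference on this scale understates changes of dim genes. Group means were fitted in limma 3.58.1 (R 4.3.3), contrasts were 60 minus 30 min and the difference of this step between strains, and p-values were adjusted by Benjamini-Hochberg over 9275 probe sets. Limma's moderated standard error follows each ± of a log2 difference. The fit was tested on simulated data. Intensities by array are printed as deposited.

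Of the probe sets tested 6504 named 1 gene, 328 several and 2443 none. Names came from the platform annotation, and each of the 6504 was found, through its gene ID, among the yeast genes of RefSeq. A list used the brightest probe set of each of 5656 genes, and only single-gene probe sets count, so genes measured with a paralog are missing from lists. The step, lists and members were chosen with earlier results of these data known, and a list's count and median describe it without a test. Named were the 15 largest called rises and 15 largest called falls of single-gene probe sets with non-overlapping arrays and a higher mean of 6.2 or more (the 25th percentile), up to 5 called genes per list and direction, members of 7 lists (galactose, RP regulators, carbon regulators, Start, a-cell, alpha-cell, histones), the 10 largest strain differences of the step, and genes whose call changed without 1 array. Other named genes (DLD1, ALD4, IDP2, IDP3, FAA2 and those given as uncalled list members among them) and the examples of the earlier step were picked after their values were seen.

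Replicate letters paired the times by the data, not by the labels: deviations from the group means of same-letter arrays at 60 and 30 min correlated at 0.25 (a), 0.26 (b) and 0.11 (c). By the instrument files, the arrays of a shared a hybridization run and station, as did those of b, while those of c shared neither. Paired cultures and shared handling of the arrays therefore cannot be told apart in the block. The fit without this block stayed the main one, and blocked values stand beside results they change. Replicate a stands for titles with no letter. Promoter motifs were not analysed here.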

Additional observations from a re-analysis of the deposited data

Results flagged for a closer look

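The difference of the 30 to 60 min step between strains, YSS89 minus YSS37, passed limma's test for 121 probe sets, and named genes among them are given with that difference on the log2 scale. This test marked them for a closer look.

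More positive in YSS89 were GUT1 (1.93), CAT8 (1.88), ECM29 (1.82), SUC2 (1.81), TMC1 (1.67), POX1 (1.62), UFD1 (1.57), CUR1 (1.55), GSY1 (1.53), ADR1 (1.09) and PRM4 (0.77). GUT1, CAT8, SUC2, POX1, GSY1, ADR1 and PRM4 were called lower in YSS37 over this step. UFD1 and ECM29, which act in ubiquitin-dependent protein breakdown, and TMC1 rose over the step in YSS89 (1.39, 1.42 and 1.10) and were not called in YSS37 (-0.18, -0.40 and -0.57). The invertase gene SUC2 averaged 35.4 ± 3.37 at 60 min and 15.2 ± 1.75 at 30 min in YSS89, and 28.2 ± 1.60 at 60 min and 44.8 ± 5.33 at 30 min in YSS37 (SD, n = 3 each). SUC2 rests on a probe set shared between similar genes. The called POX1 probe set was dim, at 4.73 ± 2.35 at 60 min and 12.5 ± 3.08 at 30 min in YSS37 (SD, n = 3 each), and 3 other POX1 probe sets changed by -0.44 to 0.36 in YSS37 without being called.

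More negative in YSS89 were TPO2 (-3.01), ADH2 (-2.03), FUR4 (-1.48), IFH1 (-1.12), ABF1 (-0.83) and DOT6 (-0.76). ABF1 and DOT6, for regulators of ribosome-related genes, were not called over the step in either strain apart from DOT6 in YSS89 (-0.51, adjusted p = 0.0110, limma). With each of 12 arrays left out and under 7 other settings, the calls of GUT1, CAT8, SUC2, UFD1, TMC1, TPO2 and ADH2 all stood. The call of ECM29 was lost under 13 of these 19 settings, among them the replicate block (adjusted p = 0.0622, limma), those of ABF1 and PRM4 under 11, of POX1 under 10 of 18, of IFH1 and GSY1 under 9, of ADR1 under 8, of DOT6 and CUR1 under 6, and of FUR4 under 1. Groups of 3 arrays were not tested for single outlying arrays.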

How the results depend on the processing

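No named gene called over the step or in the strain difference changed direction under any setting. Of the 130 called single-gene probe sets, 118 kept their call with the replicate block, 51 with each of the 6 arrays left out in turn, and 6 under every setting that gave a value, namely JEN1, GUT1, SFC1, DIP5, CAT8 and FAT3. Among them the block ended no calls beyond those given beside the results and those of GIP2, GPH1, YML131W, YGR161W-C, PBI2 and ECM38.

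The counts of 29 rises and 113 falls were 0 and 7 from the 6 arrays alone and 0 and 27 from the 9 arrays of YSS37. They were 0 and 10 from the first hybridization run alone, and 19 and 76 with the run as a fixed block. The fits with 0 rises had 854, 785 and 638 probe sets at an unadjusted p under 0.05 (limma), and estimate the spread from fewer arrays. With 1 array left out rises numbered 10 to 34 and falls 49 to 94. With values as deposited they were 30 and 100, with median centring 21 and 104, with a pseudocount of 6.2 37 and 129, and with a trended, robust prior 39 and 136. The strain difference, 121 probe sets, was called for 198 without the 25% dimmest probe sets, 183 with 1 probe set per gene, 192 with the trended, robust prior and 37 to 113 with 1 of 12 arrays left out, a setting chosen after seeing the data. Except where fewer probe sets or arrays entered by construction, the cause was not tested. Dim probe sets limit what can be told: 2 called rises and 2 called falls averaged under 6.2 at the higher time.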
